A study of Rattus norvegicus with 60 samples.

Results

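The cytochrome P450 and carboxylesterase genes of the rat were followed in the frontal cortex 6 h after a single oral dose of a pyrethroid insecticide. They were taken as all probe sets (groups of short probes that together read 1 transcript) whose array annotation gave 1 gene symbol, Cyp or Ces followed by a digit. This rule found 72 of the 31042 probe sets on the array, for 63 of 14217 named genes. Of these, 58 were P450 genes with 66 probe sets and 5 were carboxylesterase genes with 6 probe sets. Where a gene had more than 1 probe set, as 8 did, it was represented by its brightest, by the mean of all 60 arrays. A further 8 probe sets of these families carried several symbols and were left out of all counts.

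The 60 samples were cortical RNA from male adult Long-Evans rats housed 2 per cage, 1 array per sample. The labels gave an age of postnatal day 62 to 64. All rats were gavaged once with corn oil at 1 mL/kg: 12 received the oil alone (vehicle), and 8 rats per dose received deltamethrin at 0.3, 1 or 3 mg/kg or permethrin at 1, 10 or 100 mg/kg in it. The same 12 vehicle rats served all 6 dose comparisons, so these comparisons are not independent. Nothing in the labels said whether rats that shared a cage were both arrayed.

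Pyrethroids act on voltage-gated sodium channels of neurons, and the intact ester is the toxic form. Carboxylesterases cut that ester, and P450 enzymes, heme proteins that insert oxygen into their substrates with electrons from the reductase encoded by Por, oxidise what remains or the intact molecule. In the rat most of this takes place in liver, where receptors such as the aryl hydrocarbon, pregnane X and constitutive androstane receptors raise P450 transcription after exposure to foreign compounds. In brain, P450 genes are best known for the removal of cholesterol by Cyp46a1, the synthesis of sterols by Cyp51 and the clearance of retinoic acid by Cyp26b1.

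No P450 or carboxylesterase gene passed the test at any dose of either compound, and neither did any of the 31042 probe sets (0%). On the log2 scale the differences of the 63 genes from vehicle lay between -0.18 and 0.22, and the pyrethroid-metabolising genes all lay under the median brightness of the array. The gene with the lowest p against vehicle was Cyp2j10, an arachidonic acid epoxygenase gene, which was lower at 1 and 3 mg/kg deltamethrin at an unadjusted p only. The widest difference of a member gene, that of Cyp11b1, lay between sets of replicate numbers and not between doses. That split was chosen after the data were seen, and 38.9% of member probe sets passed there against 59.4% of all probe sets. Cyp11b1, which encodes the last enzyme of corticosterone synthesis, lay 1.01 log2 units higher in the rats with lower replicate numbers in the labels than in the rest.

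The arrays read as cortex. Mean log2 values had medians of 11.8 for 8 neuron markers, 12.2 for 6 oligodendrocyte markers and 10.8 for 7 astrocyte markers, against 5.42 for 14 liver genes that cortex should lack. The deposited values are log2 RMA values and ran from 3.75 to 14.1 over the table. Clustering of all probe sets put 14 arrays apart from the other 46, and the first principal component held 58.02% of the variance. All 14 arrays were among the lower replicate numbers, which are described after the dose results. In bulk cortex, fewer cells of a type and less RNA per cell cannot be told apart.

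Most of the family was dim in this tissue. Of the 63 genes, 24 had means under 5.76, the 25th percentile of all probe sets, and 48 under the median of 7.17, while 4 exceeded 8.70, the 75th percentile. Those 4 were Cyp46a1, the neuronal enzyme that hydroxylates cholesterol for export from brain (mean 11.56), Cyp51, the lanosterol demethylase of cholesterol synthesis (10.71), Cyp2d4, a P450 known from rat brain (9.30), and Cyp26b1, the retinoic acid hydroxylase (9.16). The dimmer probe sets of Cyp51 (8.37), Cyp2d4 (8.48) and Cyp26b1 (8.36) lay under the 75th percentile. Probe sets differ in affinity, so these values place a probe set on the array and do not rank transcripts by amount.

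By role, the 11 genes known to act on pyrethroids in rat liver had a median of 5.52, close to the 5.42 of the liver genes that cortex should lack. All 11 lay under the array's median and 8 under its 25th percentile, with Cyp1a2 the highest at 6.92. The 20 other xenobiotic P450s of families 1 to 3 had a median of 5.56, and after Cyp2d4 the highest was the ethanol-oxidising Cyp2e1 at 7.25. The 15 fatty acid and eicosanoid P450s had a median of 6.94, led by the fatty acid hydroxylases Cyp4v3 at 8.51 and Cyp4a3 at 8.41. The dimmer Cyp4v3 probe set had a mean of 5.33. The 13 genes assigned to cholesterol, bile acids and steroid hormones had a median of 6.32. The place of Cyp20a1 among them was assigned and not tested. In the group of 3 retinoic acid and vitamin D genes the median was that of Cyp27b1, which activates vitamin D, at 7.75. Ces5a, with no role assigned, had a mean of 6.47.

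The DNA around the starts of the members was looked at for the dinucleotide CG. RefSeq promoter windows on GRCr8 were found for 51 of the 63 genes, and the first 250 bases of each were searched for it. These bases need not end at the gene's listed start. The printed Cyp46a1 and Cyp2j10 windows reach into the gene spans, chr6:133011948-133039167 and chr5:116076012-116110914. CG reads the same on both strands. The 51 windows held a median of 3 CG, against 6 over all 27456 promoters in the table, and 9 of the 51 (17.6%) held 10 or more, against 38.2% of all promoters. None of the 9 pyrethroid genes with a window reached 10, against 4 of 8 genes assigned to cholesterol and steroids, Cyp20a1 (17 CG) among them. The Cyp46a1 window held 26 CG and the Cyp51 window 21, while the Cyp2j10 and Cyp3a18 windows each held 3. Windows with 10 or more CG were not confined to bright genes, since those of the dim Cyp39a1 and Cyp26a1 held 13 and 18, while those of the bright Cyp2d4 and Cyp26b1 held 9 each. These counts describe the windows and were not tested against expression. The 4 windows are printed 5' to 3' with each CG in capitals, the first pair for the 2 brightest genes, the others for the gene with the lowest p against vehicle and for a dim CYP3A gene.
Cyp46a1, chr6:133011740-133011989, plus strand: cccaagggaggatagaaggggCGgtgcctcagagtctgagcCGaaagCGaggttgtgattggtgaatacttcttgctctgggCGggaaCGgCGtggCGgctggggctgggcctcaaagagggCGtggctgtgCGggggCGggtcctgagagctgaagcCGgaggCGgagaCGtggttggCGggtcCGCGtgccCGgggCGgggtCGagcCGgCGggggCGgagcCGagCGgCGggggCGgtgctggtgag
Cyp51, chr4:30991443-30991692, plus strand: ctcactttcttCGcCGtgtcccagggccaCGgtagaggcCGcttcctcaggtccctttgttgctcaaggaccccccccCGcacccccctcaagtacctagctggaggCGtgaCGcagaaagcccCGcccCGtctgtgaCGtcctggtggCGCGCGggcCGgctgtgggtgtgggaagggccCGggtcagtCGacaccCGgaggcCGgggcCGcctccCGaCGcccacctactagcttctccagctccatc
Cyp2j10, chr5:116110810-116111059, minus strand: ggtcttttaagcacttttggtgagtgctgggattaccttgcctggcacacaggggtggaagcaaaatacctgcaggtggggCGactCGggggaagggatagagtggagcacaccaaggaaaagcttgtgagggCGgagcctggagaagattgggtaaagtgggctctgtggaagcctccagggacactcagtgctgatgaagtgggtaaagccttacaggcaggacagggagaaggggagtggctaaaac
Cyp3a18, chr12:13994062-13994311, plus strand: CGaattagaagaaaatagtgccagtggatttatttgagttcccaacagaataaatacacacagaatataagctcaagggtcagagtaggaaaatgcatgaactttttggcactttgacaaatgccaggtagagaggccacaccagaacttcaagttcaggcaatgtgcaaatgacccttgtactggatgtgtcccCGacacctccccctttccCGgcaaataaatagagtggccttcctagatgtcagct

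The first question was whether the enzymes that break down pyrethroids responded in cortex. None of the 72 probe sets reached an adjusted p under 0.05 in limma at any dose, and neither did any of the 31042 probe sets (0%). The array came close to that threshold at 3 mg/kg deltamethrin, where its lowest adjusted p was 0.0512 in limma. At an unadjusted p under 0.05, no member was found at 0.3 mg/kg deltamethrin (0.751% of all probe sets), 1 was lower at 1 mg/kg (2.24%, of which 0.908% were lower) and 2 were lower at 3 mg/kg (1.36%, with 0.606% lower). For permethrin the counts were 0 at 1 mg/kg (1.18%), 1 lower at 10 mg/kg (3.48%, with 1.12% lower) and 0 at 100 mg/kg (1.24%). In the linear dose trends, 2 members had a negative slope at that p with deltamethrin (1.36% of all probe sets, with 0.525% negative) and 0 had either slope with permethrin (0.696%). Counts of 0 to 2 of 72 are too few to set the members apart from these shares.

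The 63 genes were spread closely around vehicle at each dose. The median difference was -0.03, -0.02 and -0.02 for rising doses of deltamethrin and 0.03, -0.01 and 0.01 for rising doses of permethrin, with all-array medians between -0.01 and 0.01. More genes were lower than higher at each deltamethrin dose, with 50, 38 and 41 of 63 lower and 13, 25 and 22 higher. Of all probe sets, 46.1%, 44.9% and 46.4% were higher at these doses. Permethrin gave 23, 43 and 23 lower and 40, 20 and 40 higher, so its sign changed with dose. Of all probe sets, 49.2%, 49.7% and 53.5% were higher with permethrin. The median absolute difference of the genes was 0.030 to 0.037, below the 0.039 to 0.059 of all probe sets, which were not matched for brightness. These values share the vehicle rats, and the genes are correlated over the arrays (median r = 0.365 over pairs, centred within the array clusters). The signs within a compound are therefore not separate observations.

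**Figure D1:**
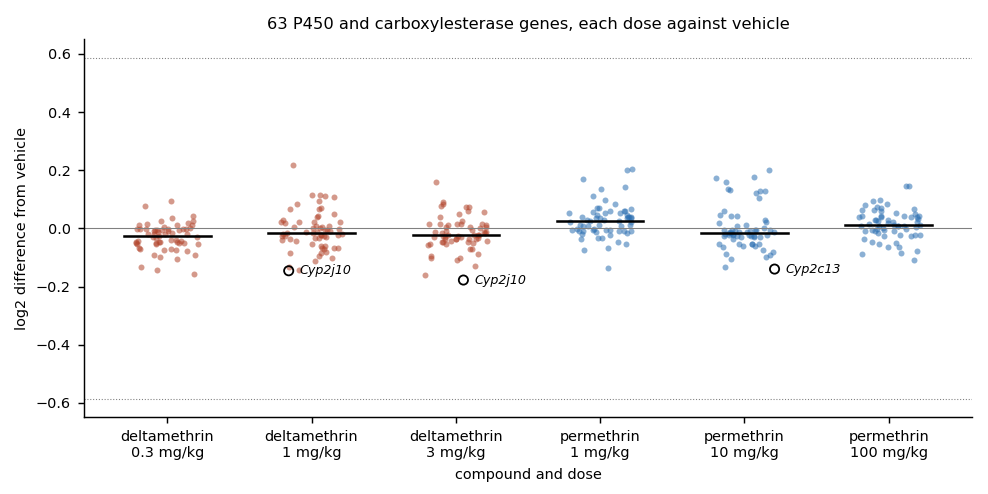
Each point is the difference of 1 of the 63 genes from the 12 vehicle rats (y axis, log2 units) at 1 of 6 doses (x axis, 8 rats each), with the median as a black bar, 1.5-fold in either direction as dotted lines, and the genes at an unadjusted p under 0.05 as open circles. The points stay between -0.18 and 0.22, inside the dotted lines at every dose.

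These data allowed only small changes for most members. The unadjusted 95% intervals lay within 1.5-fold of vehicle in both directions for all 63 genes at 4 of the 6 doses, and for 62 at the other two. The exception was Cyp11b1, with lower bounds of -0.67 at 3 mg/kg deltamethrin and -0.61 at 10 mg/kg permethrin. With the set of replicate numbers described later in the fit, these bounds were -0.23 and -0.18. For the 11 pyrethroid genes all bounds at all 6 doses lay between -0.28 (Cyp1a2 at 1 mg/kg deltamethrin) and 0.25 (Cyp2c11 at 100 mg/kg permethrin), or 0.822-fold to 1.19-fold of vehicle. These bounds hold for the array values, and array values of dim probe sets understate fold changes.

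Among the P450s that oxidise pyrethroids, Cyp1a1 and Cyp1a2 are the classic targets of the aryl hydrocarbon receptor. Cyp1a1 ran from 5.55 to 6.19 with a median of 5.89 in vehicle rats, from 5.53 to 6.15 with a median of 5.86 at 3 mg/kg deltamethrin, and from 5.63 to 5.99 with a median of 5.74 at 100 mg/kg permethrin. Cyp1a2 ran from 6.45 to 7.30 with a median of 6.95 in vehicle rats, and its medians at the same doses were 6.94 and 6.91. At these doses the rats lay within or close to the vehicle range for both genes.

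CYP2C11 is the main male-specific P450 of rat liver and CYP2C6 another abundant form. Cyp2c11 ran from 5.46 to 5.92 in vehicle rats (median 5.72), from 5.19 to 6.04 at 3 mg/kg deltamethrin (5.72) and from 5.44 to 6.19 at 100 mg/kg permethrin (5.79). Cyp2c6v1 had medians of 4.41 in vehicle rats, 4.36 at 3 mg/kg deltamethrin and 4.33 at 100 mg/kg permethrin. The CYP2C genes are close copies of each other, so signal on any 1 of these probe sets may come partly from another.

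The CYP3A genes are induced through the pregnane X receptor in liver. Cyp3a18 ran from 4.80 to 5.41 in vehicle rats (median 5.16) and from 4.81 to 5.17 at 3 mg/kg deltamethrin (5.01), and the groups overlapped. Its difference of -0.13 (SE 0.067, 95% interval -0.27 to 0.01, unadjusted p = 0.0590 in limma) was the largest of the 11 pyrethroid genes at any dose. Cyp3a2 had medians of 4.74 in vehicle rats and 4.76 at 3 mg/kg deltamethrin, and Cyp3a23-3a1 of 4.74 in both. At 100 mg/kg permethrin the medians of Cyp3a18, Cyp3a2 and Cyp3a23-3a1 were 5.20, 4.77 and 4.80.

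The carboxylesterases, which cut the ester of permethrin and deltamethrin, were as flat. Ces1d ran from 4.60 to 4.88 in vehicle rats (median 4.69) and from 4.69 to 4.95 at 100 mg/kg permethrin (4.79), a difference of 0.08 (SE 0.045, 95% interval -0.01 to 0.17, unadjusted p = 0.0711 in limma). The vehicle rats lay between 5.69 and 6.15 for Ces2c, whose median was 5.93 in vehicle and at both top doses. Ces1c medians were 5.54 in vehicle rats, 5.50 at 3 mg/kg deltamethrin and 5.60 at 100 mg/kg permethrin. Those of Ces1e were 5.58, 5.53 and 5.57. All these ranges overlapped.

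**Figure D2:**
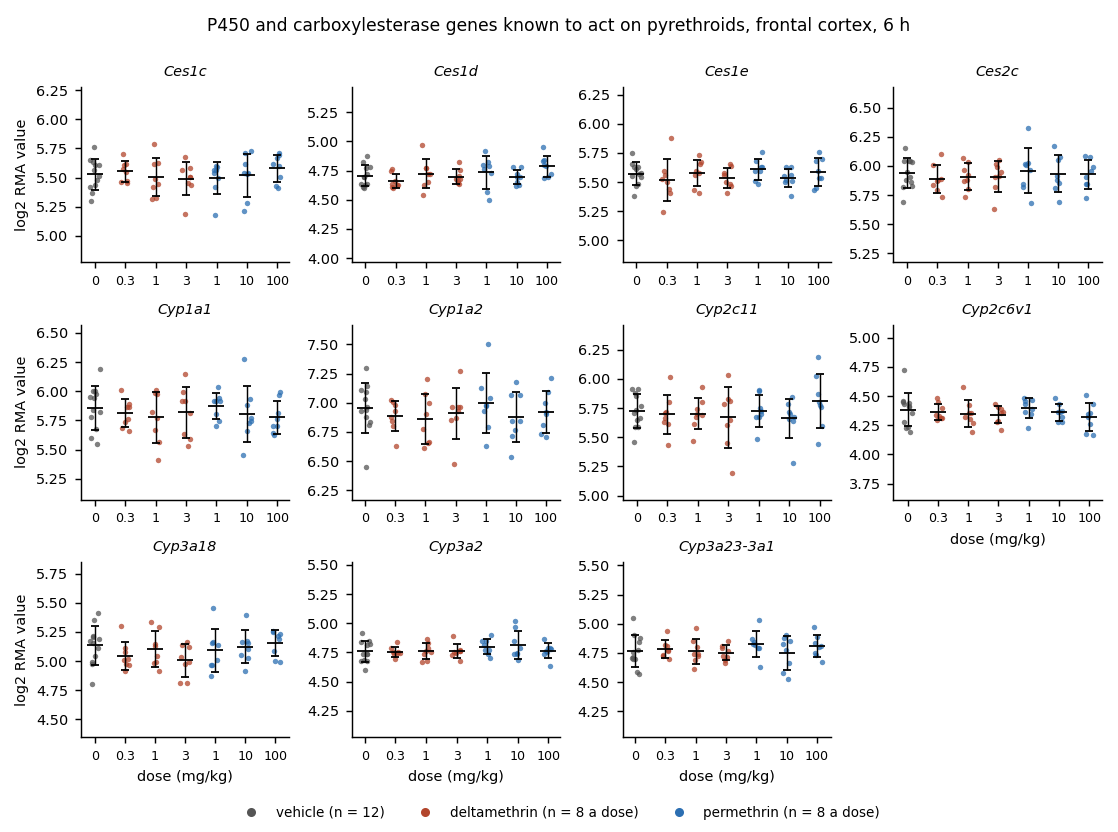
Log2 RMA value (y axis) of each rat for the 11 genes known to act on pyrethroids, by dose in mg/kg (x axis: grey vehicle, n = 12; red deltamethrin and blue permethrin, n = 8 each), with mean and SD as bars. In every panel the dosed rats overlap the vehicle rats, and the 11 panels sit between 4.17 for Cyp2c6v1 and 7.51 for Cyp1a2.

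Cyp2j10 gave the lowest p of all members against vehicle. Its product belongs to the CYP2J epoxygenases, which turn arachidonic acid into vasoactive lipids. The vehicle rats ran from 6.12 to 6.50 with a median of 6.28, the 8 rats at 1 mg/kg deltamethrin from 5.93 to 6.36 with a median of 6.09, and the 8 at 3 mg/kg from 5.81 to 6.30 with a median of 6.09. At 0.3 mg/kg the range was 6.03 to 6.54 (median 6.17). All deltamethrin groups overlapped vehicle, with the lowest rats at the higher doses.

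The Cyp2j10 difference from vehicle was -0.15 at 1 mg/kg (SE 0.065, unadjusted p = 0.0285, adjusted p = 1.00 in limma) and -0.18 at 3 mg/kg (SE 0.065, 95% interval -0.31 to -0.05, unadjusted p = 0.00821, adjusted p = 1.00), or 0.884-fold. Its linear trend was -0.06 log2 units per mg/kg (SE 0.021, unadjusted p = 0.00690). Permethrin medians were 6.28, 6.25 and 6.30 for rising doses, beside the 6.28 of vehicle. Without rat 4 of the 1 mg/kg group the difference there was no longer under the unadjusted 0.05 (p = 0.0798 in limma), while at 3 mg/kg every fit that left out 1 array kept it (highest p = 0.0385). With the replicate number as a block the differences were -0.10 (unadjusted p = 0.157 in limma) and -0.13 (unadjusted p = 0.0654), so neither dose stayed under the unadjusted 0.05. In that block vehicle rats 9 to 12 had no same-numbered dosed rat. Vehicle rats 4 to 6 fell in the lower numbers compared later, and dosed rats 4 to 6 in the higher. With those sets as the block the differences were -0.15 and -0.19 (unadjusted p = 0.0172 and 0.00449 in limma, adjusted p of 0.766 or more). Within the 14 arrays that cluster apart, which hold 2 rats each of vehicle and of these doses, the differences at 1 and 3 mg/kg were 0.10 and 0.0019, against -0.21 and -0.22 in the other 46 arrays.

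The other members at an unadjusted p under 0.05 were 2 dim probe sets. Cyp2c13, a male-specific liver P450, ran from 5.06 to 5.52 in vehicle rats (median 5.27) and from 4.93 to 5.28 at 10 mg/kg permethrin (median 5.14), with a difference of -0.14 (SE 0.064, unadjusted p = 0.0323 in limma) that was -0.01 at 100 mg/kg. The dimmest of 3 probe sets for Cyp19a1, the aromatase that makes oestrogen, differed by -0.11 at 3 mg/kg deltamethrin (unadjusted p = 0.0445 in limma). The brightest Cyp19a1 probe set differed by -0.05 there (unadjusted p = 0.629 in limma), in the same direction. Only the dimmest of the 3 was under the unadjusted 0.05.

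**Figure D3:**
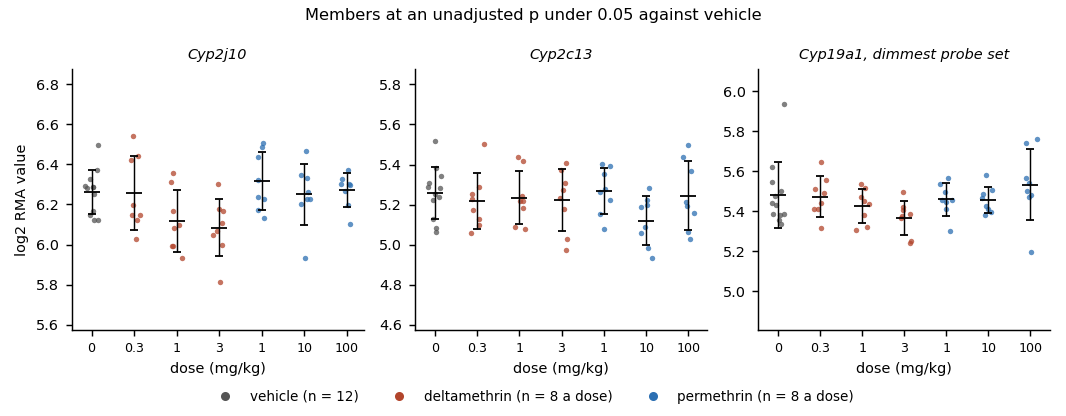
Log2 RMA value (y axis) of each rat by dose in mg/kg (x axis; colours, n, mean and SD bars as for the pyrethroid genes) for the 3 probe sets at an unadjusted p under 0.05 against vehicle. The vehicle median of Cyp2j10 is 6.28, its medians at 1 and 3 mg/kg deltamethrin are 6.09, and the groups overlap in all 3 panels.

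None of the brighter P450s passed the test at any dose, and no probe set on the array did (0%). Cyp46a1 had medians of 11.46 in vehicle rats, 11.58 at 3 mg/kg deltamethrin and 11.45 at 100 mg/kg permethrin, and its largest difference, 0.12 at 1 mg/kg deltamethrin, had a 95% interval of -0.07 to 0.30. Cyp51 had medians of 10.71, 10.67 and 10.65 in the same groups. Cyp2d4 had medians of 9.24, 9.27 and 9.25. Cyp26b1 varied most among the bright genes, from 8.09 to 9.68 within the vehicle rats alone, and its difference of 0.22 at 1 mg/kg deltamethrin, the largest of any member gene at any dose, had a 95% interval of -0.13 to 0.56. Cyp27a1, a mitochondrial sterol hydroxylase, was 0.20 higher at 1 mg/kg permethrin (unadjusted p = 0.0543 in limma), with medians of 7.21 in vehicle rats and 7.29 in the dosed rats.

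In lists of genes around the P450 system, chosen for their function, no gene passed the test, and no probe set on the array did (0%). Of 11 measured electron donors and partners of P450s, 19 receptors that regulate them, 14 other esterases and lipases, 24 genes of conjugation and aldehyde oxidation and 12 of cholesterol synthesis beside Cyp51, 0 passed the adjusted test in limma at any dose. At an unadjusted p under 0.05, the most found in any list and dose comparison was 2 of the 19 receptors at 10 mg/kg permethrin, 1 higher and 1 lower. List medians lay between -0.05 and 0.10, beside the all-array medians of -0.01 to 0.01. Single genes were spread more widely than the P450s and carboxylesterases, from -0.45 in the cholesterol list at 10 mg/kg permethrin to 0.33 in the conjugation list at 3 mg/kg deltamethrin. In the conjugation list 21 of 24 genes were higher at 10 mg/kg permethrin (median 0.10), where 49.7% of all probe sets were higher. At 1 mg/kg deltamethrin 19 of 24 were higher (median 0.07), beside 44.9% of all probe sets, with the vehicle rats shared. The array cluster of 14 held 3 of 8 rats at 10 mg/kg permethrin, 2 of 8 at 1 mg/kg deltamethrin and 2 of 12 vehicle rats. Its part in these counts was not tested.

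Deltamethrin and permethrin differ by the cyano group that deltamethrin carries and permethrin lacks, and by the halogens of the acid part. They share 1 dose by mass, 1 mg/kg. There Cyp2j10 was 0.20 lower with deltamethrin, with medians of 6.09 and 6.28 and overlapping ranges (log2 difference -0.20, SE 0.071, unadjusted p = 0.00681, adjusted p = 1.00 in limma), and it was the only 1 of 72 members at an unadjusted p under 0.05 (2.73% of all probe sets, with 1.02% lower). No member passed the adjusted test, nor did any probe set on the array (0%). The 95% intervals of all 63 genes lay within 1.5-fold, and those of the 11 pyrethroid genes between -0.34 and 0.16. Of the 63 genes, 49 were lower and 14 higher with deltamethrin, while 48% of all probe sets were higher. The median was -0.04 for the genes beside -0.0041 for all probe sets.

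At the other pairs of doses, set side by side by rank, the doses differ in mg/kg. At 0.3 mg/kg deltamethrin against 1 mg/kg permethrin 1 member was lower at an unadjusted p under 0.05 (2.41% of all probe sets, with 0.892% lower), Cyp4f6, a fatty acid hydroxylase gene, at -0.17 (p = 0.0499 in limma). Without rat 2 of the permethrin group it was -0.11 (p = 0.185 in limma), and with the replicate number as a block p was 0.0589. At 1 against 10 mg/kg there was 0 (1.02%). At 3 against 100 mg/kg there were 3, all lower (0.802%, with 0.58% lower): Cyp2j10 at -0.19, the dimmest Cyp19a1 probe set at -0.16 and the dimmer Cyp4v3 probe set at -0.13. None passed the adjusted test, nor did any probe set on the array in these pairs (0%).

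More members differed by replicate number than by dose, but the first comparison set 24 arrays against 36 and each dose comparison 8 against 12. These counts are therefore not like for like. Within each group the labels number the rats, and the rats numbered 1 to 6 of vehicle and 1 to 3 of each dose (24 arrays) were compared with the remaining 36. These sets have the sizes of the first 2 dosing cohorts in the study's methods, but the labels name no cohort, and the split was chosen after the data were seen. With the dose group in the fit, 28 of 72 member probe sets (38.9%) passed an adjusted p under 0.05 in limma, against 59.4% of all probe sets. By gene this was 25 of 63, with 15 higher and 10 lower in the lower numbers (31.2% and 28.2% of all probe sets). The median absolute difference was 0.063 for the genes and 0.120 for all probe sets, so the members stood below the array as a whole. Of the 63 genes 48 lay under the median brightness of the array, and no comparison at like brightness was made.

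Cyp11b1 was the exception among them. Its values in the 24 lower-numbered rats ran from 8.69 to 9.67 with a median of 9.20, and in the 36 others from 7.81 to 8.75 with a median of 8.16. The difference was 1.01 (SE 0.058, adjusted p = 3.89e-21 in limma). Within each of the 7 groups the 2 sets did not overlap, as between 8.69 to 9.30 and 7.95 to 8.36 for vehicle, and 1.25% of all probe sets shared that property. It was the only member with no overlap in all 7, the next being the dimmer Cyp51 probe set with 5.

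Other probes for the same transcripts differed among themselves. A probe set annotated to both Cyp11b1 and Cyp11b2, the aldosterone synthase gene, differed by 1.08 (adjusted p = 6.27e-22 in limma), and one annotated to Cyp11b1, Cyp11b3 and Cyp11b2 by 0.52 (adjusted p = 6.13e-13). One for Cyp11b1 and Cyp11b3 alone differed by 0.03 (adjusted p = 0.268). These genes are close copies, so the array does not say which of them was read. Cyp11b1 on GRCr8 lies at chr7:108653385-108660062.

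The dose differences of Cyp11b1 changed when the set was in the fit, since 6 of 12 vehicle rats but 3 of 8 rats at each dose had lower numbers. Without the set they were 0.08, -0.01 and -0.16 for rising doses of deltamethrin and -0.03, -0.10 and 0.03 for permethrin, with an SE of 0.253. With the set as a block they were 0.20, 0.12 and -0.03 for deltamethrin and 0.09, 0.02 and 0.15 for permethrin, with an SE of 0.100 and adjusted p of 0.791 or more in limma. The sign turned at 1 mg/kg deltamethrin and at 1 and 10 mg/kg permethrin. Cyp2j10 stayed at -0.15 and -0.19 for 1 and 3 mg/kg deltamethrin in that fit (unadjusted p = 0.0172 and 0.00449, adjusted p = 0.766 and 1.00). No member passed the adjusted test with that block. Of all probe sets, 3 passed at 3 mg/kg deltamethrin and 0 at each other dose.

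**Figure D4:**
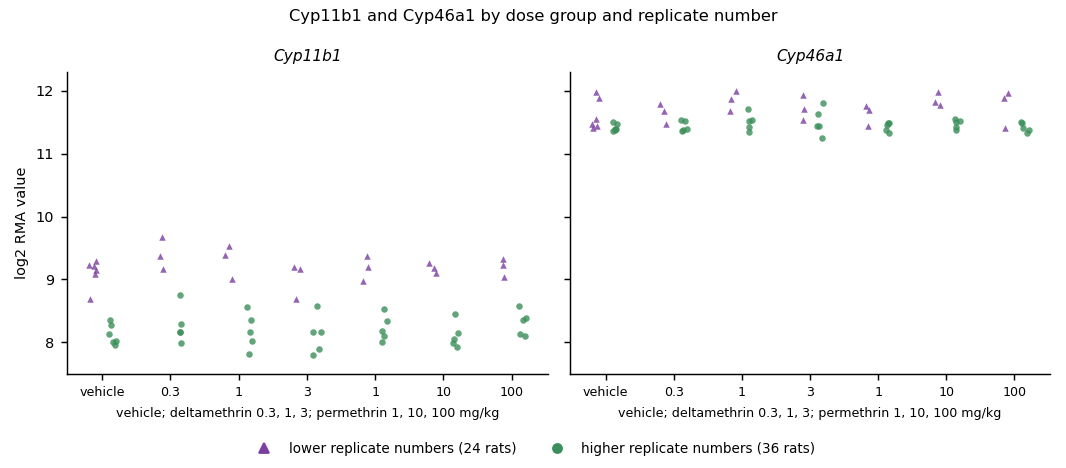
Log2 RMA value (y axis) of each rat for Cyp11b1 (left) and Cyp46a1 (right) by dose group (x axis, mg/kg), with the 24 lower replicate numbers as purple triangles and the 36 higher numbers as green dots. For Cyp11b1 the triangles lie above the dots in all 7 groups (medians 9.20 and 8.16), whereas for Cyp46a1 they overlap (11.73 and 11.44).

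The CYP4F genes, whose products hydroxylate leukotrienes and other fatty acids, went the same way. All 5 were higher in the lower numbers and passed the test, as 31.2% of all probe sets did. The differences ran from 0.14 for Cyp4f6 to 0.34 for Cyp4f17, with Cyp4f1 at 0.27 and Cyp4f4 and Cyp4f5 at 0.18. All 5 lie on chromosome 7 and are similar in sequence, so their probe sets may share signal. The 14 arrays that cluster apart showed them further from the other 46, by 0.54 for Cyp4f1 and 0.46 for Cyp4f4, given here with no test. By contrast 3 of 7 CYP2C genes were lower (28.2% of all probe sets), among them Cyp2c11 at -0.17, the only pyrethroid gene of 11 that passed.

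Cyp46a1 was higher by 0.27 in the lower numbers (adjusted p = 1.03e-07 in limma), from 11.40 to 12.00 with a median of 11.73 against 11.26 to 11.80 with a median of 11.44. Cyp2d4 was higher by 0.26 and Cyp26a1, a second retinoic acid hydroxylase, by 0.22. Cyp7b1, an oxysterol hydroxylase, differed by -0.17, and Cyp7a1, the first enzyme of bile acid synthesis, differed by -0.13. By role, passing genes were 7 higher and 2 lower of 15 for fatty acids, 4 and 4 of 20 for xenobiotics, and 3 and 2 of 13 for sterols and steroids. They were 1 and 1 of 3 for retinoic acid and vitamin D, and 0 and 1 of 11 for pyrethroids. Of all probe sets, 31.2% passed as higher and 28.2% as lower.

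For some genes the direction depended on the probe set. The brighter Cyp26b1 probe set was lower in the lower numbers (-0.38, adjusted p = 1.50e-04 in limma) and the dimmer one higher (0.27, adjusted p = 1.73e-07). For Cyp51 the brighter probe set differed by -0.06 (adjusted p = 0.354), the dimmer by 0.49 (adjusted p = 3.56e-09). The Cyp2j3 probe sets differed by 0.25 and -0.01. Which transcripts the disagreeing probe sets read was not tested.

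Some markers of cell types and of the P450 system passed the test between the replicate numbers too, beside 31.2% higher and 28.2% lower of all probe sets. Of 7 microglia markers 5 were higher in the lower numbers and 0 lower, with a median of 0.31. Neuron markers gave 3 higher and 5 lower of 8, astrocyte markers 4 and 3 of 7, and choroid plexus markers 0 of 7. Oligodendrocyte markers gave 3 and 1 of 6, endothelial and mural markers 5 and 2 of 12, and meningeal markers 3 and 3 of 10. Striatal markers gave 2 and 2 of 7, blood markers 0 and 1 of 4, and the liver genes 2 and 2 of 14. Of the 11 measured electron donors and partners of P450s 3 were higher and 4 lower, with a median of -0.06. They ran from Pgrmc1 at -0.60 (adjusted p = 9.59e-06 in limma) to Por, the electron donor of the microsomal P450s, at 0.56 (adjusted p = 6.71e-09). Of 12 cholesterol synthesis genes 6 were higher and 3 lower. The part of cell makeup, cohort and array handling in the differences of Cyp11b1 and the other members was not tested.

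**Figure D5:**
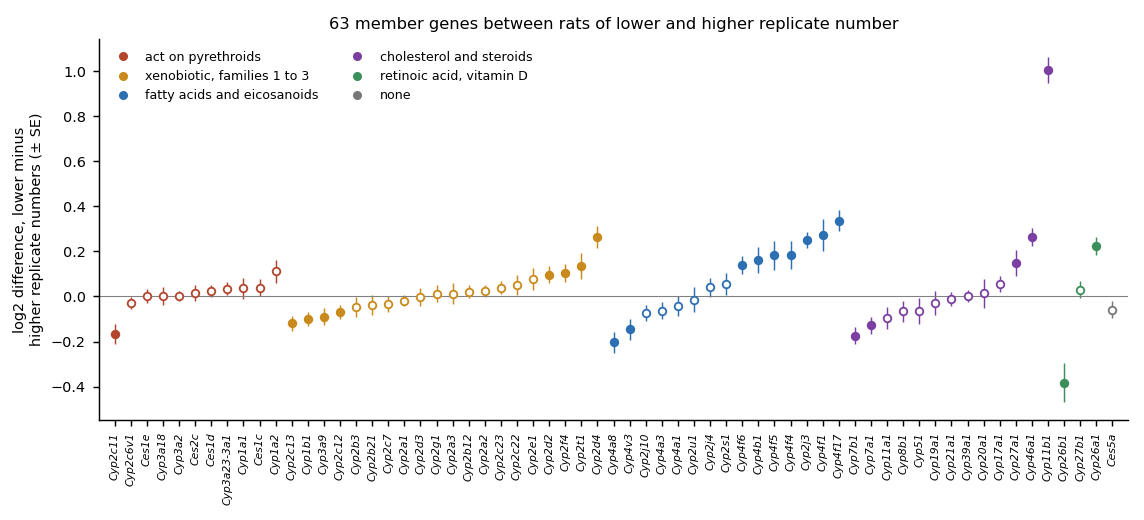
Log2 difference between the 24 lower and 36 higher replicate numbers (y axis, with SE) for each of the 63 genes (x axis), coloured by role, filled where the adjusted p was under 0.05. Cyp11b1 stands at 1.01, the other genes lie between -0.38 (Cyp26b1) and 0.34 (Cyp4f17), and 10 of the 11 pyrethroid genes are open.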

How the data were processed

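RNA from the frontal cortex of 60 rats was hybridised to Affymetrix arrays, 1 array per rat, and the authors background-corrected, quantile-normalised and summarised the probes with RMA (RMAExpress, per the study's methods). The deposited values are log2 RMA expression values for 31042 probe sets, used as deposited. All columns of per-sample values were matched to the labels by their sample. Gene names came from the platform annotation (20826 probe sets with 1 symbol, 436 with several and 9780 with none), and all 63 member genes matched a RefSeq gene by Entrez ID.

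Groups came from the labels. A limma model (limma 3.58.1, R 4.3.3) with 7 group means was fitted to all probe sets and all 60 arrays, and the linear dose trend to the 36 arrays of each compound. P-values were adjusted by Benjamini-Hochberg over all 31042 probe sets, with a threshold of 0.05, and no filter on dim probe sets was set. The rats were separate animals. Arrays hold no read depth, so their number limits the precision. Intervals are unadjusted 95% intervals of the fit. The scripts were tested on simulated data. Promoter counts and figures used Python 3.11.15, pandas 2.3.3, numpy 2.4.6 and matplotlib 3.10.9.

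The members, roles and lists were chosen with earlier results of these data known. Values by rat were given for the pyrethroid genes, for at most 5 members per dose comparison or trend at an unadjusted p under 0.05, for the 2 lowest p in each comparison of compounds, for the 5 largest differences between array clusters, the 5 largest SDs and the 2 highest means per role. Genes outside these, such as Cyp27a1, Cyp26a1, Cyp7a1, Cyp7b1, Cyp4f17 and Cyp2j3, were chosen after their values were seen. Alternatives were the replicate number, the array clusters or the first principal component in the fit, array medians, linear values, a trended robust prior, brighter probe sets only, 1 probe set per gene, only the arrays compared, dose ranks, and each array left out. The comparison by sets of replicate numbers, and the fit with that set as a block, were added after the data were seen.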

Additional observations from a re-analysis of the deposited data

Results flagged for a closer look

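In 9 of 168 groups of 8 rats looked at, over 28 named genes, 1 rat stood far from the others, and chance gives about 1 in 20 such groups. Cyp26b1 gave 3 of them, each with a low rat: 8.38 at 100 mg/kg permethrin (next rat 9.09), 8.64 at 1 mg/kg deltamethrin (next 9.25) and 8.41 at 3 mg/kg deltamethrin (next 9.09), all among the lower replicate numbers, in which this probe set was lower. Cyp4f5 gave 2, each with a high rat of the lower numbers: 6.72 at 100 mg/kg permethrin (next 6.21) and 6.20 at 3 mg/kg deltamethrin (next 6.00). Cyp2c11 at 10 mg/kg permethrin had a low rat at 5.28 (next 5.64). Cyp4a3 in the same group had a low rat at 8.07 (next 8.35). Ces1c at 1 mg/kg permethrin had a low rat at 5.18 (next 5.42). Cyp3a2 at 3 mg/kg deltamethrin had a high rat at 4.89 (next 4.77).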

How the results depend on the processing

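In all 12 comparisons, each alternative that applied and each fit that left out 1 array gave 0 members at an adjusted p under 0.05 in limma. Few or no probe sets of the whole array passed in the alternatives either. At 3 mg/kg deltamethrin it gave 2 with the array clusters, 5 with the first principal component and 3 with the set block. In the deltamethrin trend the same 3 fits gave 3, 6 and 4 of all probe sets. A count of 0 of 72 therefore does not set the members apart from the array. Leaving out 1 array moved the count of members at an unadjusted p under 0.05 to between 0 and 4 of 72 against vehicle. It moved the count to between 0 and 6 at 0.3 against 1 mg/kg of deltamethrin and permethrin, and to between 2 and 6 at 3 against 100 mg/kg. No share of all probe sets is given for these fits, so the counts cannot set the members apart from the array. With the replicate number as a block, that count was 0, 4 and 4 for rising doses of deltamethrin (2.87%, 4.16% and 3.19% of all probe sets) and 9, 5 and 6 for permethrin (7.93%, 5.84% and 6.24%). Same-numbered rats of different groups had a median correlation of deviations of 0.369, against 0.00657 for other numbers, and the median was above 0 for all 8 numbers. Of 168 same-number pairs 112 had r above 0.1, and 17 of 60 arrays matched their own number best. Same-numbered rats thus shared structure, but not in every pair, and the numbers were not taken as pairs. Such rats mostly fell in the same set of lower or higher numbers. Structure tied to the number beyond that set was not tested. The number block also put vehicle rats 4 to 6, of the lower set, beside dosed rats 4 to 6 of the higher set. In the replicate block fit Cyp2j10 differed from vehicle by -0.10 at 1 mg/kg deltamethrin (unadjusted p = 0.157 in limma) and -0.13 at 3 mg/kg (p = 0.0654), and Cyp2c13 by -0.08 at 10 mg/kg permethrin (p = 0.211). Leaving out 1 array, Cyp2j10 ranged from -0.18 to -0.12 at 1 mg/kg and from -0.21 to -0.14 at 3 mg/kg, and Cyp2c13 from -0.16 to -0.11. Within the smaller array cluster of 14, Cyp2j10 turned sign: 0.10 at 1 mg/kg and 0.0019 at 3 mg/kg deltamethrin against vehicle, and 0.053 for deltamethrin against permethrin at 1 mg/kg. The cause was not tested. The other differences followed here, of Cyp2c13, Cyp4f6, Cyp2t1, Cyp3a18, Cyp4a1 and Cyp2j10 in the comparisons in which they were named for a low p, kept their direction under the alternatives run. Of the other members only the counts, and the values with the set of replicate numbers as a block, were recomputed, and there Cyp11b1 turned sign at 3 doses. Signal near that of genes cortex should lack limits what can be said of the dim members.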

Other observations

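Across the 60 arrays, centred within the 2 array clusters, the members most alike came from several roles. The highest correlations were those of Cyp2b21 with Cyp4a1 (r = 0.836), Cyp2c7 with Cyp4a1 (0.832), Cyp1a2 with Cyp2f4 (0.824) and Cyp19a1 with Cyp1a2 (0.818). The median over all 1953 pairs of the 63 genes was 0.365. The points share arrays, normalisation and, for dim probe sets, a common background, and these correlations are given as a description with no test.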
